A study of Mus musculus with 28 samples.

Results

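Libraries labelled as type 2 alveolar epithelial cells (AEC2) of the mouse lung were compared with libraries labelled as type 1 alveolar epithelial cells (AEC1), over all treatments. The comparison took every library that the labels assign to either population: 6 AEC2 and 6 AEC1 libraries, 12 of the 28 in the series, which also holds innate lymphoid cells and basophils. Per the labels, all were made from epithelial cells sorted by flow cytometry from lungs of wild-type C57BL/6 mice aged 8 weeks. The surface markers of the sort are not given in the sources used here. Each population had 2 libraries from untreated mice, 2 from mice given papain, and 2 from mice given papain and FK506. Papain is a plant protease that provokes allergic airway inflammation, and was given into the nose at 50 µg per day. FK506 (tacrolimus), an inhibitor of the phosphatase calcineurin, was given by intraperitoneal injection, 0.2 mg per day for 3 days and, after a gap of 2 days, for another 3 days together with papain. The question was which genes differ between the populations whatever the treatment, so treatment was a block in the fit.

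Type 2 cells are the cuboidal secretory cells of the alveolus. They make surfactant, a mixture of phospholipids and proteins that lowers surface tension, store it in lamellar bodies, and can divide to replace type 1 cells. Type 1 cells are thin and flat, cover most of the gas exchange surface, and are known for the receptor Ager, the membrane glycoprotein Pdpn, the water channel Aqp5 and the caveolar protein Cav1. Fibroblasts lie beneath both, and mesothelial cells, which also carry Pdpn, form the outer covering of the lung.

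The libraries hold the 3' ends of transcripts from 10 ng of total RNA, in CPM, reads scaled to a common library total. In 11 libraries the low values were whole multiples of 1 read, which put the depth at 1206897 to 1336080 reads in 5 AEC2 libraries and 847782 to 975467 reads in the 6 AEC1 libraries. AEC2 untreated replicate 1 was deposited in whole numbers, and its depth is unknown. One read was worth 0.7485 to 0.8286 CPM in AEC2 and 1.0252 to 1.1795 CPM in AEC1, so levels of a few CPM rest on a few reads. Genes above 0 numbered 4441 to 6507 in AEC2 and 6334 to 7334 in AEC1, and ribosomal RNA genes took 137796 to 303682 CPM in AEC2 and 106766 to 167341 CPM in AEC1. Even the glycolysis gene Gapdh, used by all cells, had a value of 0 in 11 of the 12 libraries, so genes are described below as listed at 0 and not as absent.

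A pair of AEC2 libraries with different treatment labels, untreated replicate 2 and papain replicate 2, was nearly identical. Their log2 values correlated at 0.994 across genes, against 0.62 to 0.724 for the other 14 pairs of AEC2 libraries and 0.658 to 0.747 for the 15 pairs of AEC1 libraries. Over 5551 genes with at least 20 reads their chi-square per gene was 2.514, where other AEC2 pairs gave 48.514 to 79.452, and 39.7% of these genes had equal read numbers in both. The AEC2 group may therefore hold 5 rather than 6 separate libraries, and the main counts are also given without one of the pair.

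Markers of type 2 cells were high in the libraries labelled AEC2, while the summed markers of type 1 cells went against the label AEC1. AEC2 markers summed to 139000, 151200 and 171500 CPM in AEC2 and 2329, 4663 and 12660 CPM in AEC1 (lowest, median and highest of 6 libraries, the order used for every set of 3 values). AEC1 markers summed to 2476, 4712 and 5426 CPM in AEC2 and 1113, 1220 and 1822 CPM in AEC1, higher in every AEC2 library than in any AEC1 library. Fibroblast and smooth muscle markers took the opposite course, with 263, 318 and 828 CPM in AEC2 and 12080, 22370 and 35010 CPM in AEC1, as did mesothelial markers, with 202, 482 and 616 CPM in AEC2 and 6230, 15030 and 23870 CPM in AEC1. In the AEC1 libraries both of these lists stood above the AEC1 markers. Single AEC1 markers moved both ways: of 11 tested, 5 were higher in AEC2, 2 (Pdpn and Cav1) were higher in AEC1, and 4 did not pass. Hopx, a transcriptional cofactor gene of type 1 cells, was at 0, 0 and 50.5 CPM in AEC2 and 0, 0 and 3.2 CPM in AEC1, and Rtkn2, another type 1 marker, was listed at 0 in all 12 libraries. AEC1 below therefore means the libraries with this label. In bulk samples, fewer cells of a type and less RNA per cell cannot be told apart.

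**Figure D1:**
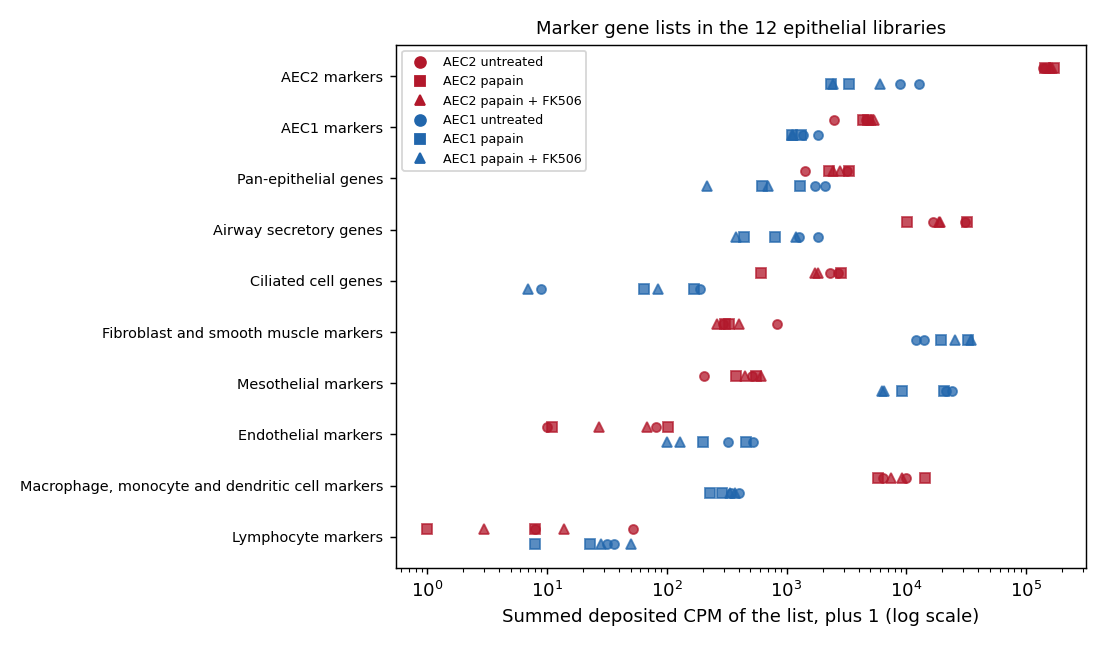
Summed CPM of 10 marker lists (rows) in each of the 12 libraries (points), on a log axis after adding 1. Colour gives the cell type and shape the treatment. AEC1 markers lie at 2476 to 5426 CPM in AEC2 and at 1113 to 1822 CPM in AEC1, and fibroblast and mesothelial markers separate the populations in the other direction.

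Of 5273 genes tested, 1047 (19.9%) differed between the populations at an adjusted p under 0.05 (limma on log2(CPM + 2), treatment as a block). Of these, 430 (8.15% of the tested genes) were higher in AEC2 and 617 (11.7%) were higher in AEC1. The median difference over all tested genes was -0.32 on the log2 scale, AEC2 minus AEC1, as are all differences below. Without AEC2 untreated replicate 2 the test called 1137 genes, 354 of them higher in AEC2, and 886 of the 1047 were called again. Without AEC2 papain replicate 2 it called 1168, 361 of them higher in AEC2, with 902 called again. In 645 genes (12.2%) the 6 values of one population all lay above the 6 of the other, 236 (4.48%) with AEC2 higher and 409 (7.76%) with AEC1 higher.

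**Figure D2:**
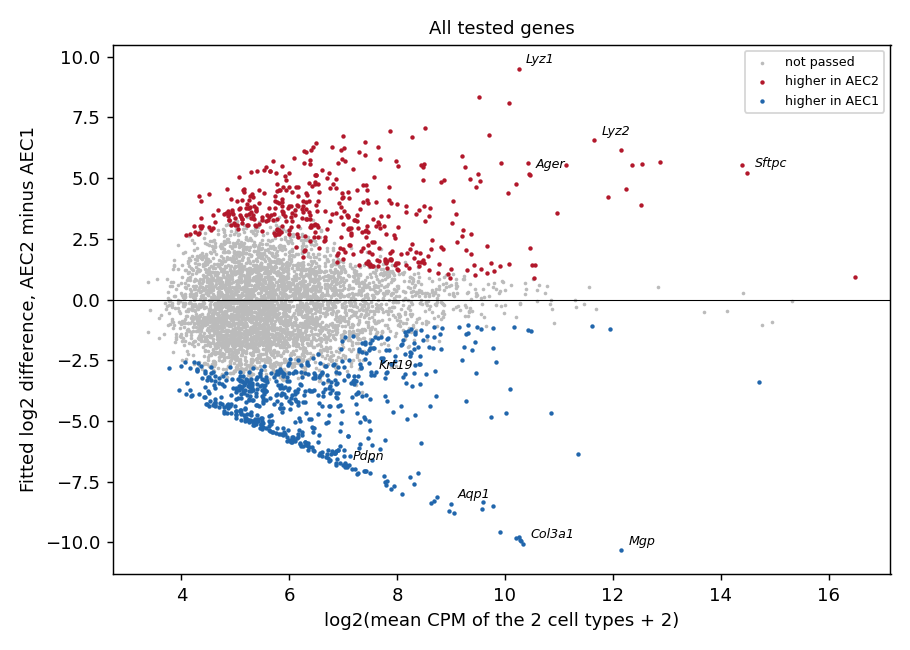
Each point is 1 of 5273 tested genes, with its mean level across the populations on the horizontal axis (log2 of CPM + 2) and the fitted log2 difference, AEC2 minus AEC1, on the vertical axis. The 430 genes higher in AEC2 are red, the 617 higher in AEC1 are blue, and genes that did not pass are grey; the straight lower edge is formed by genes at or near 0 in AEC2.

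The surfactant protein genes were among the most abundant genes called higher in AEC2. Sftpc, the hydrophobic surfactant protein C made by type 2 cells (chromosome 14, 70520941 to 70524081 in GRCm38.p6), stood at 32887, 42182 and 61276 CPM in AEC2 and 453, 1302 and 3968 CPM in AEC1 (log2 difference 5.21, SE 0.32, adjusted p = 1.3e-08). Sftpa1, the collectin surfactant protein A, stood at 27600, 43989 and 48128 CPM in AEC2 and 376, 933 and 2300.1 CPM in AEC1 (log2 difference 5.53, SE 0.33, adjusted p = 8.04e-09). Sftpb, which spreads the phospholipid film, stood at 11029, 15223 and 18287 CPM in AEC2 and 108, 330.4 and 673 CPM in AEC1 (log2 difference 5.64, SE 0.32, adjusted p = 6.21e-09). No AEC1 library reached the lowest AEC2 library for any of the 3 genes. The other collectin, Sftpd, differed likewise (5383, 8707 and 13886 CPM in AEC2 and 140.4, 407 and 965 CPM in AEC1; log2 difference 4.55, SE 0.38, adjusted p = 4.99e-07).

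The bases before the starts of Sftpb and Sftpa1, which differed by nearly the same amount, are shown with those of 2 genes of the opposite direction, Col3a1 and Upk3b. These promoters were picked by hand and not by rule. The 250 bases before each RefSeq gene start (GRCm38.p6) are written 5′ to 3′ on the gene's strand. Capitals mark CTCAAG, the core letters bound by NKX2-1, TGTTTAC or TGTTTGC, letters bound by FOXA factors, and GGAATG, letters bound by TEAD factors, searched on both strands; none of the capitals overlap.
Sftpb (chr6:72304360-72304609, plus strand): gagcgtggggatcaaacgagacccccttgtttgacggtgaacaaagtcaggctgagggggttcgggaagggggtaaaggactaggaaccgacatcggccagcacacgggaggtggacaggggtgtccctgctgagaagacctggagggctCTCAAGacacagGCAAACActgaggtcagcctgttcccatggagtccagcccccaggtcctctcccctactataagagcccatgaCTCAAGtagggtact
Sftpa1 (chr14:41131538-41131787, plus strand): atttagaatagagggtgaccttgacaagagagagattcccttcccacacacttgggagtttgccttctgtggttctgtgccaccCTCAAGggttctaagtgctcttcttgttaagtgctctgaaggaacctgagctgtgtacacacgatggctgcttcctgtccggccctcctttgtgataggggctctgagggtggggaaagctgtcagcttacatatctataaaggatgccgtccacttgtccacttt
Col3a1 (chr1:45311288-45311537, plus strand): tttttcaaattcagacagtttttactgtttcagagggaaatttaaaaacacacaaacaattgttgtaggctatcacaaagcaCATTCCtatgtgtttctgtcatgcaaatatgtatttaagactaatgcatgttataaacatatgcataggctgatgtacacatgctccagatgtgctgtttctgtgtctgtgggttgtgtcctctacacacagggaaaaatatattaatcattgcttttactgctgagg
Upk3b (chr5:136038246-136038495, plus strand): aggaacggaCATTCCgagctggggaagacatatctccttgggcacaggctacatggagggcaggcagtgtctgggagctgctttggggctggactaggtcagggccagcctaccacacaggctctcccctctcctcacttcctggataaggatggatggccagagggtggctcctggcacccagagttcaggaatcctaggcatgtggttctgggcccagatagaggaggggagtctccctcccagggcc
Sftpb held CTCAAG at 100 to 95 and at 15 to 10 bases before the start, and TGTTTGC on the opposite strand at 88 to 82 bases. Sftpa1 held CTCAAG at 166 to 161 bases. GGAATG stood on the opposite strand in Col3a1, at 168 to 163 bases, and in Upk3b, at 241 to 236 bases. Such letters are common: of 32851 promoters in the RefSeq table, 13.3% held CTCAAG, 7.3% held either FOXA sequence and 12.6% held GGAATG. Among the 24 genes with the largest differences named below, promoters were at hand for 10 of those higher in AEC2, of which 3 held CTCAAG, 1 a FOXA sequence and 2 GGAATG. They were at hand for 5 of those higher in AEC1, of which 2 held CTCAAG, 0 a FOXA sequence and 2 GGAATG. A match of letters is a description and not a binding site, and its relation to the differences was not tested.

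The factors themselves were measured. Foxa2, a forkhead factor of lung epithelium, stood at 68.4, 249 and 383 CPM in AEC2 and 0, 0 and 1 CPM in AEC1 (log2 difference 6.74, SE 0.84, adjusted p = 3.7e-05), and Cebpa, a factor of type 2 cell maturation, at 117, 318 and 375 CPM in AEC2 and 0, 4.35 and 31.1 CPM in AEC1 (log2 difference 5.39, SE 0.78, adjusted p = 0.000141). Nkx2-1, the master factor of lung epithelium, did not pass the filter on low values and stood at 3, 124 and 290 CPM in AEC2 and 0, 0 and 3.5 CPM in AEC1. Etv5, a factor of the type 2 cell state, was near 0 in both, at 0, 0.75 and 3.1 CPM in AEC2 and 0, 0 and 0 CPM in AEC1. Of 11 tested lung epithelial transcription factors, 4 were higher in AEC2 (Foxa1, Foxa2, Cebpa and Id2). The count was 3 with either library of the nearly identical pair left out. Another 3 factors were higher in AEC1. Those 3 were the pluripotency and differentiation factor Klf4 (0, 52 and 81.3 CPM in AEC2 and 368, 756 and 1079.7 CPM in AEC1; log2 difference -4.40, SE 0.71, adjusted p = 0.000319), the Hippo pathway coactivator Wwtr1, known as TAZ (0, 6.65 and 22.2 CPM in AEC2 and 72, 100.2 and 193 CPM in AEC1; log2 difference -4.07, SE 0.97, adjusted p = 0.00655), and its partner Tead1 (0, 1.1 and 40.6 CPM in AEC2 and 1.2, 85.2 and 152 CPM in AEC1; log2 difference -3.53, SE 1.03, adjusted p = 0.0243). For Klf4 and Wwtr1 the groups did not overlap, while for Tead1 they did. The call of Tead1 was lost in 8 of 28 alternatives. It was lost when AEC2 papain + FK506 replicate 1, AEC1 untreated replicate 1, AEC1 papain replicate 1 or AEC1 papain replicate 2 was left out. Averaging the nearly identical pair into 1 library also lost it. So did leaving out the rounded library with AEC2 papain replicate 2 or with the whole pair. The calls of Wwtr1 and Tead1 were both lost with edgeR.

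Of 15 tested surfactant and lamellar body genes, 11 were higher in AEC2, none was higher in AEC1, and the median difference was 4.55, against -0.32 over all genes. With either library of the nearly identical pair left out, 9 of the 15 were higher in AEC2. The 4 surfactant protein genes above are among them, and of the other 11 tested members 7 were higher in AEC2. Slc34a2, the phosphate transporter that recovers phosphate from surfactant, stood at 5320, 6922 and 8862 CPM in AEC2 and 148, 448 and 1308 CPM in AEC1 (log2 difference 4.20, SE 0.39, adjusted p = 2.02e-06). Lamp3, a lamellar body membrane protein, stood at 617, 1490.1 and 1742 CPM in AEC2 and 0, 59.4 and 256 CPM in AEC1 (log2 difference 5.15, SE 0.81, adjusted p = 0.000247). Abca3, the lipid pump of the lamellar body, was too low for the test, at 0, 65.2 and 108 CPM in AEC2 and 0, 0 and 2.2 CPM in AEC1. All 21 tested AEC2 markers of 24 listed were higher in AEC2, also without either library of the nearly identical pair. The most abundant of them outside the surfactant proteins was Cxcl15, or lungkine, a chemokine of lung epithelium (8884, 11438 and 14898 CPM in AEC2 and 84, 259 and 503 CPM in AEC1; log2 difference 5.60, SE 0.36, adjusted p = 2.24e-08).

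The 12 genes named as higher in AEC2 by size of difference were led by Lyz1 (chromosome 10, 117287795 to 117292868), a lysozyme, at 1565, 1679 and 4902 CPM in AEC2 and 0, 0 and 17.3 CPM in AEC1 (log2 difference 9.50, SE 0.63, adjusted p = 3.84e-08). Its relative Lyz2, a lysozyme shared by type 2 cells and macrophages, stood at 4223, 6263 and 9294 CPM in AEC2 and 24.4, 71.2 and 162 CPM in AEC1 (log2 difference 6.55, SE 0.39, adjusted p = 8.04e-09). Reads from these near-identical genes may have been split between them, so each level is uncertain. The macrophage receptor gene Csf1r was listed at 0 in all 6 AEC2 libraries and stood at 47.8, 86.4 and 132 CPM in AEC1 (adjusted p = 0.000175). Of 20 macrophage, monocyte and dendritic cell markers, 13 were listed at 0 throughout AEC2, 8 throughout AEC1 and 6 in all 12 libraries. The list, which holds Lyz1 and Lyz2, summed to 5797 to 14310 CPM in AEC2 and 229.6 to 400.4 CPM in AEC1. A part of macrophages in the lysozyme levels was not tested.

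Sfta2, a secreted surfactant-associated protein, stood at 973, 1451 and 2270.3 CPM in AEC2 and 0, 1.05 and 76.3 CPM in AEC1 (log2 difference 8.32, SE 0.78, adjusted p = 2.02e-06), and S100g, a calcium-binding protein, at 1865, 2004 and 2688 CPM in AEC2 and 0, 11.8 and 38.9 CPM in AEC1 (log2 difference 8.07, SE 0.82, adjusted p = 5.51e-06). The homeobox factor Irx1 stood at 859, 1706 and 2042 CPM in AEC2 and 0, 26.4 and 132 CPM in AEC1 (log2 difference 6.77, SE 0.73, adjusted p = 9.94e-06). A pair of mitochondrial proteins followed, Chchd10 of the intermembrane space (504, 689 and 995 CPM in AEC2 and 0, 1.15 and 29.7 CPM in AEC1; log2 difference 7.06, SE 0.76, adjusted p = 9.06e-06) and the cytochrome oxidase subunit Cox6a2 (199, 380.4 and 942 CPM in AEC2 and 0, 0 and 53.7 CPM in AEC1; log2 difference 6.92, SE 0.81, adjusted p = 2.21e-05). The rule took only genes whose values did not overlap between the populations, and among these 5 the highest AEC1 median was 26.4 CPM, for Irx1. Bex2, Foxa2, Dynlrb2, Rprm and Tspan1 completed the set, with AEC2 medians of 557.9, 248.8, 362.6, 178.1 and 147.7 CPM. Rprm, a cell cycle arrest gene, was listed at 0 in all AEC1 libraries (adjusted p = 5.31e-05).

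**Figure D3:**
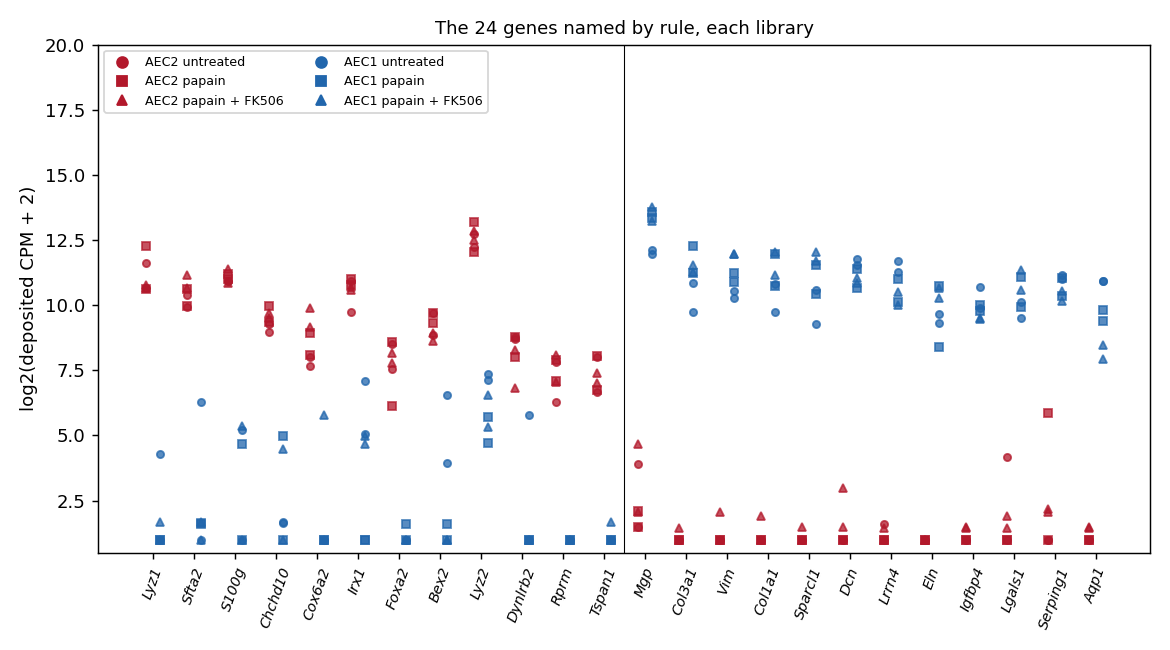
The 24 genes named by size of difference (12 higher in AEC2, left; 12 higher in AEC1, right), with 1 point per library at log2 of CPM + 2. Colour gives the cell type and shape the treatment. The genes were chosen for values that do not overlap, and a point at 1 on the vertical axis is a value listed at 0, as for Rprm in all AEC1 libraries.

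Lipid synthesis, which supplies the phospholipid of surfactant, was higher in AEC2 in part. Of 19 tested cholesterol and fatty acid synthesis genes, 9 were higher in AEC2 and none in AEC1, with a median difference of 2.88. The list's count was 6 without AEC2 untreated replicate 2, 5 without AEC1 untreated replicate 2 and 4 without AEC1 papain replicate 2, and 2 in the lowest of the fits that left out several libraries. The fatty acid desaturase Scd1 stood at 1806, 3992 and 5092 CPM in AEC2 and 68.8, 397 and 1362 CPM in AEC1 (log2 difference 3.56, SE 0.56, adjusted p = 0.000248) and the fatty acid elongase Elovl1 at 1457, 1931 and 2912 CPM in AEC2 and 50.2, 90.2 and 230 CPM in AEC1 (log2 difference 4.38, SE 0.38, adjusted p = 8.27e-07). In both, every AEC2 value lay above every AEC1 value. Hmgcs1, an early enzyme of cholesterol synthesis, did not pass (17.4, 164 and 295 CPM in AEC2 and 96.4, 155 and 231 CPM in AEC1; log2 difference -0.23, SE 0.57, adjusted p = 0.818), nor did the fatty acyl-CoA ligase Acsl4 (log2 difference 1.07, SE 0.39, adjusted p = 0.0639).

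Among antigen presentation genes, all 5 tested MHC class II genes were higher in AEC2, also without either library of the nearly identical pair. The alpha chain H2-Aa stood at 1204, 1758 and 2979.6 CPM in AEC2 and 1.2, 59.4 and 144 CPM in AEC1 (log2 difference 5.60, SE 0.71, adjusted p = 4.61e-05), the invariant chain Cd74 at 892, 1284 and 1961 CPM in AEC2 and 3.5, 78.5 and 155 CPM in AEC1 (log2 difference 4.64, SE 0.63, adjusted p = 9.1e-05) and the beta chain H2-Ab1 at 447, 692 and 1028 CPM in AEC2 and 18.5, 60.4 and 125 CPM in AEC1 (log2 difference 3.76, SE 0.46, adjusted p = 3.21e-05). Type 2 cells are known to carry class II molecules. Of 8 tested class I genes, 1 differed: B2m, the class I light chain, was higher in AEC1 (331, 547 and 703 CPM in AEC2 and 922, 1151 and 1659 CPM in AEC1; log2 difference -1.18, SE 0.29, adjusted p = 0.00806). This 1 in 8 is near the 11.7% of all tested genes that were higher in AEC1, and the class I median difference was 0.55. The B2m call was lost in 1 of 28 alternatives. The class I heavy chain H2-K1 did not pass (1282, 1356 and 2315 CPM in AEC2 and 445, 1296 and 1822 CPM in AEC1; log2 difference 0.67, SE 0.30, adjusted p = 0.138). Histocompatibility genes resemble each other closely, and their single levels are uncertain.

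Secreted defence genes split between the populations. Of 16 tested complement, lipocalin and acute phase genes, 6 were higher in AEC2 and 7 in AEC1. Over all tested genes the shares were 8.15% and 11.7%. Among tested members, 3 were listed at 0 in all AEC2 libraries, so they passed the filter through AEC1 alone. With no filter on low values, 6 of 18 were higher in AEC2 and 8 in AEC1. On the AEC2 side were Lrg1, a leucine-rich glycoprotein (1213, 2189 and 5749 CPM in AEC2 and 24.6, 44.2 and 99.2 CPM in AEC1; log2 difference 5.63, SE 0.40, adjusted p = 6.84e-08), Lcn2, the iron-sequestering lipocalin (329, 1005 and 2215 CPM in AEC2 and 0, 40.5 and 167 CPM in AEC1; log2 difference 5.44, SE 0.63, adjusted p = 2.03e-05), Hp, haptoglobin (494, 691 and 1394 CPM in AEC2 and 1.1, 52.4 and 142 CPM in AEC1; log2 difference 4.85, SE 0.86, adjusted p = 0.000657), Hc, complement C5 (log2 difference 4.87, SE 0.86, adjusted p = 0.000623), and Lbp, the endotoxin-binding protein (log2 difference 2.56, SE 0.69, adjusted p = 0.015), with Lyz2. The call of Lbp was lost without AEC2 papain + FK506 replicate 2. On the AEC1 side stood C3, the central complement component (35, 149.8 and 189.7 CPM in AEC2 and 1805, 3060.1 and 7794 CPM in AEC1; log2 difference -4.67, SE 0.41, adjusted p = 8.27e-07), and Serping1, the C1 inhibitor (0, 1.1 and 56.7 CPM in AEC2 and 1154, 1772 and 2282 CPM in AEC1; log2 difference -8.50, SE 0.74, adjusted p = 8.62e-07) with C4b, C1s1, C1ra and Cfb among the others. Cxcl13, a B cell chemokine, was listed at 0 in all AEC2 libraries and stood at 49.8, 207 and 744 CPM in AEC1 (adjusted p = 0.000116). The alarmin Il33, released by damaged epithelium, was higher in AEC2 (42, 415 and 691 CPM in AEC2 and 0, 10.4 and 146 CPM in AEC1; log2 difference 4.63, SE 1.10, adjusted p = 0.00648), although its groups overlapped.

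Genes of airway epithelium were also higher in the AEC2 libraries. Of 7 tested airway secretory genes, 6 were higher in AEC2, and of 7 tested ciliated cell genes, 6 were. The ciliated count was 5 without AEC2 papain replicate 2, and over all tested genes the share was 8.15%. Among tested members, 1 airway secretory gene and 2 ciliated genes were listed at 0 in all AEC1 libraries. They passed the filter through AEC2 alone. With no filter on low values, 6 of 12 airway secretory and 8 of 14 ciliated genes were higher in AEC2, against 388 of 12345 over all genes. Scgb1a1, the secretoglobin of club cells, stood at 1920, 9674 and 19333 CPM in AEC2 and 36.6, 214 and 641 CPM in AEC1 (log2 difference 5.52, SE 0.67, adjusted p = 3.02e-05). Cbr2, a carbonyl reductase of club cells, stood at 6168, 8581 and 12776 CPM in AEC2 and 3.1, 178 and 576 CPM in AEC1 (log2 difference 6.16, SE 0.64, adjusted p = 6.63e-06). Dynlrb2, a dynein light chain of cilia, stood at 110, 363 and 438 CPM in AEC2 and 0, 0 and 52.9 CPM in AEC1 (log2 difference 6.47, SE 0.88, adjusted p = 9.3e-05). The airway secretory list summed to 10090 to 31900 CPM in AEC2 and 375 to 1827 CPM in AEC1, with 4 of 15 members listed at 0 throughout AEC2. The ciliated list summed to 616 to 2838 CPM in AEC2 and 5.9 to 189 CPM in AEC1, with none of the 14 members in the tables at 0 throughout AEC2 and 7 at 0 throughout AEC1. Their part in the AEC2 differences was not tested.

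The genes taken to mark type 1 cells moved both ways. Of 11 tested members of 20 listed, 5 were higher in AEC2 (Ager, Aqp5, Cldn18, Gprc5a and Cyp2b10) and 2 in AEC1 (Pdpn and Cav1), also without either library of the nearly identical pair. Ager, the receptor for advanced glycation end products (chromosome 17, 34597460 to 34600937), stood at 1384, 2799 and 3506 CPM in AEC2 and 37.1, 85.2 and 114 CPM in AEC1 (log2 difference 5.17, SE 0.36, adjusted p = 6.77e-08), so no AEC1 library came near the lowest AEC2 library. Aqp5 stood at 152, 277 and 426 CPM in AEC2 and 0, 39.5 and 74.8 CPM in AEC1 (log2 difference 3.74, SE 0.80, adjusted p = 0.00322) and the tight junction claudin Cldn18 at 396, 568 and 1405 CPM in AEC2 and 2.2, 31.9 and 50.2 CPM in AEC1 (log2 difference 4.91, SE 0.50, adjusted p = 5.69e-06). Pdpn (chromosome 4, 143267409 to 143299564) was listed at 0 in all 6 AEC2 libraries and stood at 98.8, 270.2 and 433 CPM in AEC1 (adjusted p = 2.43e-05). Cav1 was at 0 in 5 of 6 AEC2 libraries and reached 33.1 CPM in the sixth, papain + FK506 replicate 2, against 38.9, 270.1 and 570.4 CPM in AEC1 (log2 difference -6.09, SE 1.02, adjusted p = 0.000433). Emp2, a tetraspan protein of type 1 cells, did not pass (178, 233 and 328 CPM in AEC2 and 182, 213 and 316 CPM in AEC1; log2 difference 0.17, SE 0.32, adjusted p = 0.77).

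General epithelial genes leaned to AEC2. Of 11 tested, 6 were higher in AEC2, and 1, the keratin Krt19, was higher in AEC1 (4, 45 and 157 CPM in AEC2 and 128, 227 and 673 CPM in AEC1; log2 difference -3.10, SE 0.88, adjusted p = 0.0207). Krt19 is also a mesothelial keratin, and its call was lost without AEC1 untreated replicate 1, AEC1 untreated replicate 2 or AEC1 papain replicate 2, and with edgeR and DESeq2. With either library of the nearly identical pair left out, 5 of the 11 general epithelial genes were higher in AEC2. Epcam, the adhesion molecule of most epithelia, stood at 36.7, 97.2 and 289 CPM in AEC2 and 0, 0 and 31.1 CPM in AEC1 (log2 difference 4.52, SE 1.02, adjusted p = 0.00462), and its call was lost with edgeR. Cldn3, a claudin of tight junctions, stood at 323, 528 and 623 CPM in AEC2 and 0, 20.3 and 42.4 CPM in AEC1 (log2 difference 5.47, SE 0.79, adjusted p = 0.000132). Cdh1, the epithelial cadherin, was low, at 0, 14.8 and 49 CPM in AEC2, and listed at 0 in all AEC1 libraries. The junction gene F11r was abundant in both and did not pass (182, 515 and 716 CPM in AEC2 and 60.7, 439 and 921 CPM in AEC1; log2 difference 0.52, SE 0.56, adjusted p = 0.572).

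Of 12 tested genes of ion and fluid transport, 1 was higher in AEC1 and 6 were higher in AEC2, or 5 without AEC2 papain replicate 2. Among them was Atp1b1, the beta chain of the sodium pump (542, 1153 and 1721 CPM in AEC2 and 56, 181 and 487 CPM in AEC1; log2 difference 2.71, SE 0.48, adjusted p = 0.000676). The 1 on the AEC1 side was Aqp1, the water channel of mesothelium and capillaries (0, 0 and 0.8 CPM in AEC2 and 245, 784 and 1969 CPM in AEC1; log2 difference -8.40, SE 0.71, adjusted p = 6.68e-07).

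Collagens and other matrix genes were higher in AEC1. All 10 tested collagens were, as were 13 of 15 tested elastic fibre and matricellular genes, with median differences of -6.47 and -5.99. With members listed at 0 throughout AEC2 set to 3 reads the medians were -5.43 and -4.84. Of the tested members, 6 collagens and 6 elastic fibre and matricellular genes were listed at 0 in all AEC2 libraries, so they passed the filter through AEC1 alone. With no filter on low values, 11 of 15 collagens and 17 of 26 elastic fibre and matricellular genes were higher in AEC1. Col3a1, the collagen III chain, stood at 0, 0 and 0.7 CPM in AEC2 and 860.3, 2440 and 4990.2 CPM in AEC1 (adjusted p = 5.94e-09), and Col1a1, the collagen I chain, at 0, 0 and 1.7 CPM in AEC2 and 859, 2055 and 4243 CPM in AEC1 (adjusted p = 5.94e-09). Each was listed at 0 in 5 of 6 AEC2 libraries. Mgp, the matrix Gla protein that inhibits calcification (chromosome 6, 136872435 to 136875823), was the highest of the set, at 0.8, 2.25 and 23.2 CPM in AEC2 and 3949.5, 10100.2 and 13889.7 CPM in AEC1 (log2 difference -10.32, SE 0.56, adjusted p = 5.94e-09). The proteoglycan Dcn, or decorin, stood at 0, 0 and 6 CPM in AEC2 and 1619, 2369.7 and 3495 CPM in AEC1 (adjusted p = 6.21e-09), the SPARC-like glycoprotein Sparcl1 at 0, 0 and 0.8 CPM in AEC2 and 619.5, 2257 and 4224 CPM in AEC1 (adjusted p = 7.57e-09), and Eln, elastin, at 0 in all AEC2 libraries and 333, 1015 and 1700.5 CPM in AEC1 (adjusted p = 1.26e-07). The intermediate filament gene Vim, or vimentin, stood at 0, 0 and 2.2 CPM in AEC2 and 1250.1, 2145 and 4039.8 CPM in AEC1 (adjusted p = 5.94e-09). No AEC2 library came near the lowest AEC1 library for any of these 7 genes. All 7 are among the genes named by size from those whose values do not overlap, so this separation follows from the choice. Since the AEC2 values of these genes other than Mgp were 0 or a few reads, the sizes of the fitted differences depend on the 2 CPM added and are not bounds.

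Of 9 tested fibroblast and smooth muscle markers of 20 listed, 8 were higher in AEC1, but 6 of the 9 are collagen and matrix genes already counted. With no filter, 12 of 19 were higher in AEC1. Of the 20 markers, 14 were listed at 0 in every AEC2 library. The smooth muscle markers Acta2 and Tagln did not pass the filter and are given as values. Acta2, smooth muscle actin, was listed at 0 in all AEC2 libraries and stood at 0, 332 and 1272 CPM in AEC1, and Tagln, transgelin, at 0 and at 0, 30.6 and 157 CPM. Both were listed at 0 in 2 of the 6 AEC1 libraries. The part of these cells in the AEC1 levels was not tested.

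Mesothelial genes were higher in AEC1. Of 13 tested mesothelial markers, 12 were higher in AEC1, with a median difference of -6.97 (-6.19 with members at 0 set to 3 reads), and 13 of 14 tested were without AEC2 untreated replicate 2. Among the tested members, 4 were listed at 0 in all AEC2 libraries and passed the filter through AEC1 alone. With no filter, 13 of 14 were higher in AEC1. Lrrn4, a leucine-rich neuronal protein of mesothelium, stood at 0, 0 and 1 CPM in AEC2 and 1023, 1763 and 3279 CPM in AEC1 (adjusted p = 7.78e-09), and Msln, mesothelin, at 0, 0 and 0.8 CPM in AEC2 and 65.3, 499.6 and 686 CPM in AEC1 (adjusted p = 1.86e-05). Upk3b, the uroplakin of mesothelium, stood at 0, 0 and 0.8 CPM in AEC2 and 81.7, 198 and 233 CPM in AEC1 (adjusted p = 8.21e-05). Wt1, the mesothelial transcription factor, was listed at 0 in all AEC2 libraries and stood at 117, 223 and 348 CPM in AEC1 (adjusted p = 3.36e-05). In all 4 genes the groups were far apart, but Lrrn4 is among the genes named for values that do not overlap. Igfbp5, an insulin-like growth factor binding protein, was the most abundant member, at 0, 68.2 and 197 CPM in AEC2 and 1328, 4361 and 10041 CPM in AEC1 (log2 difference -6.34, SE 0.91, adjusted p = 0.00013). Other regulators of connective tissue followed: of 6 tested mesenchymal transcription factors, 5 were higher in AEC1 (8 of 9 tested without any 1 AEC2 library, and 8 of 17 with no filter), among them Osr1 (34.9, 193 and 348 CPM in AEC1, 0 in all AEC2 libraries; adjusted p = 9.29e-05) and Hoxa5 (84.1, 118 and 295 CPM, 0 in all AEC2 libraries; adjusted p = 9.68e-05). All 5 called factors were listed at 0 in all AEC2 libraries, so they passed the filter through AEC1 alone. Serum response factor, Srf, did not pass (0, 197 and 466 CPM in AEC2 and 55.2, 155 and 333 CPM in AEC1; log2 difference -0.23, SE 1.07, adjusted p = 0.906).

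Markers of endothelial cells, lymphocytes, neutrophils, erythrocytes and platelets summed to at most 528 CPM in any library. Endothelial markers summed to 9.2 to 101 CPM in AEC2 and 100.3 to 528 CPM in AEC1, with 16 of 18 members listed at 0 throughout AEC2 and 6 throughout AEC1. Kdr, the vascular growth factor receptor, was the 1 member tested and stood at 0, 0 and 1.5 CPM in AEC2 and 75.8, 186 and 450.1 CPM in AEC1 (adjusted p = 0.000103). Pecam1, the endothelial adhesion molecule, was listed at 0 in all AEC2 libraries and reached 2.2 CPM in AEC1. Ptprc, the pan-leukocyte marker CD45, stood at 0, 0 and 0.7 CPM in AEC2 and 0, 15.5 and 31.1 CPM in AEC1. Lymphocyte markers summed to 0 to 51 CPM in AEC2 and 7.4 to 49 CPM in AEC1. Neutrophil markers summed to 0 to 31.1 CPM in AEC2 and 0 to 140.8 CPM in AEC1. For erythrocyte and platelet genes the sums were 0 to 67.4 CPM in AEC2 and 6.7 to 497.2 CPM in AEC1.

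Basement membrane genes were called mostly on the AEC1 side. Of 9 tested genes, 4 were higher in AEC1, where 11.7% of all tested genes were. The 1 gene higher in AEC2 is near the 8.15% of all tested genes. With no filter on low values, 5 of 18 were higher in AEC1 and 1 in AEC2. The laminin chains Lamb1 (0, 0 and 10.7 CPM in AEC2 and 48.3, 255 and 489.5 CPM in AEC1; log2 difference -5.63, SE 0.95, adjusted p = 0.000443) and Lamc1 (0, 27.1 and 38.1 CPM in AEC2 and 94.3, 241 and 429.9 CPM in AEC1; log2 difference -3.44, SE 0.67, adjusted p = 0.00143) were higher in AEC1, while Lamb3, a laminin chain of epithelia, was higher in AEC2 (104, 147 and 268 CPM in AEC2 and 0, 0.5 and 37.7 CPM in AEC1; log2 difference 5.14, SE 0.91, adjusted p = 0.000635). The main collagen IV chains Col4a1 (log2 difference -0.48, SE 0.58, adjusted p = 0.62) and Col4a2 (log2 difference 0.41, SE 0.69, adjusted p = 0.73) did not pass. Of 9 tested contractile and cytoskeletal genes, 4 were higher in AEC1, among them the actin-binding caldesmon Cald1 (64.5, 160.2 and 181 CPM in AEC2 and 551, 1012 and 2224 CPM in AEC1; log2 difference -3.02, SE 0.39, adjusted p = 5.45e-05) and filamin Flna (log2 difference -2.67, SE 0.83, adjusted p = 0.0332). The call of Flna was lost in 11 of 28 alternatives, including those without either library of the nearly identical pair. The 4 of 9 contractile and cytoskeletal genes are to be read against the 11.7% of all tested genes higher in AEC1. With no filter on low values, 5 of 18 contractile and cytoskeletal genes were higher in AEC1.

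In the TGF-beta and WNT signalling lists, more tested genes were higher in AEC1 than in AEC2. Among tested members, 5 WNT genes and 1 TGF-beta or BMP gene were listed at 0 in all AEC2 libraries. They passed the filter through AEC1 alone. With no filter on low values, 7 of 18 WNT genes and 6 of 22 TGF-beta and BMP genes were higher in AEC1. Over all genes 672 of 12345 were. Of 14 tested TGF-beta and BMP genes, 6 were higher in AEC1 and 1 in AEC2. The connective tissue growth factor Ccn2 stood at 0, 0 and 0.7 CPM in AEC2 and 70.2, 449 and 1524 CPM in AEC1 (adjusted p = 6.63e-06) and the BMP target Id3 at 0, 45.2 and 83.1 CPM in AEC2 and 241, 542 and 1213 CPM in AEC1 (log2 difference -4.74, SE 0.96, adjusted p = 0.00203). Another BMP target, Id2, was the exception, at 246, 322 and 471 CPM in AEC2 and 29.9, 36.5 and 78.6 CPM in AEC1 (log2 difference 3.01, SE 0.44, adjusted p = 0.000138). Of 12 tested WNT genes, 6 were higher in AEC1, among them the secreted agonist Rspo1 (76.7, 342 and 677 CPM in AEC1, 0 in all AEC2 libraries; adjusted p = 2.41e-05) and the secreted antagonists Sfrp1 (92.3, 146 and 246 CPM, 0 in all AEC2 libraries; adjusted p = 6.45e-05) and Dkk3 (26.5, 174 and 291 CPM, 0 in all AEC2 libraries; adjusted p = 0.000176). Ctnnb1, beta-catenin, was higher in AEC2 (554, 998 and 1261 CPM in AEC2 and 130.2, 276 and 319 CPM in AEC1; log2 difference 2.05, SE 0.33, adjusted p = 0.000319). The FGF receptors were split: Fgfr2, the epithelial receptor, was higher in AEC2 (207, 382 and 564 CPM in AEC2 and 0, 44.8 and 140.3 CPM in AEC1; log2 difference 4.09, SE 0.74, adjusted p = 0.000781), and Fgfr1 was listed at 0 in all AEC2 libraries and stood at 25.3, 101 and 159.9 CPM in AEC1 (adjusted p = 0.000244).

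Housekeeping groups differed in their counts, to be read against the 19.9% of all tested genes that passed. Of 32 tested cytosolic ribosomal protein genes, 1 passed, Rps14 (log2 difference 0.90, SE 0.25, adjusted p = 0.0169), and its call was lost in 7 of 28 alternatives. Of 35 tested nuclear-encoded genes of oxidative phosphorylation, 8 were higher in AEC2, where 8.15% of all tested genes were, and none in AEC1. Their median difference was 0.82. The number higher in AEC2 was 6 without AEC2 untreated replicate 2, 4 without AEC2 papain replicate 1 and 5 without AEC2 papain + FK506 replicate 1. It was 3 without AEC2 papain + FK506 replicate 2, near the share over all tested genes, and 5 without AEC1 papain + FK506 replicate 2. The cytochrome oxidase subunit Cox6c stood at 1096, 1543 and 2002 CPM in AEC2 and 518, 553 and 849.5 CPM in AEC1 (log2 difference 1.44, SE 0.22, adjusted p = 0.00024). Of 9 tested genes encoded in the mitochondrion, 1 passed, ND6, which was higher in AEC1, and the list sum ranged widely, at 60330 to 122000 CPM in AEC2 and 83410 to 303300 CPM in AEC1. ND4 and ND2, complex I subunits, had differences of -0.92 and -1.05 that did not pass (adjusted p = 0.0739 and 0.0588).

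Stress genes, which tissue digestion and sorting can raise, were measured next. Of 21 tested immediate early genes, 4 were higher in AEC1 and 1 in AEC2, Ier2 (log2 difference 1.51, SE 0.47, adjusted p = 0.0348), whose call was lost in 17 of 28 alternatives. The count of 5 in 21 is near the share over all tested genes. The AP-1 subunit Jun stood at 1029.9, 1682 and 2266 CPM in AEC2 and 1281, 1963 and 2700.3 CPM in AEC1 and did not pass (log2 difference -0.20, SE 0.25, adjusted p = 0.641). Of 18 tested heat shock and unfolded protein genes, 5 were higher in AEC1, where 11.7% of all tested genes were, or 3 without AEC1 untreated replicate 2. They included the cytosolic chaperone Hsp90ab1 (1434, 1814 and 2565 CPM in AEC2 and 3619.5, 3834 and 7022 CPM in AEC1; log2 difference -1.08, SE 0.20, adjusted p = 0.001) and the endoplasmic reticulum chaperone Hspa5 (436, 771 and 1123 CPM in AEC2 and 1068, 1923 and 3553 CPM in AEC1; log2 difference -1.28, SE 0.26, adjusted p = 0.00195). Herpud1, of protein degradation at the endoplasmic reticulum, was the 1 gene higher in AEC2 (153, 347 and 515 CPM in AEC2 and 14.4, 51.5 and 95.5 CPM in AEC1; log2 difference 2.94, SE 0.51, adjusted p = 0.000525).

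Targets of FK506 and genes of cell division passed at shares near that of all tested genes. Of 12 tested calcineurin, NFAT and FK506-binding genes, 2 were higher in AEC1 (Fkbp5 and Fkbp10) and 1 in AEC2, Fkbp4 (log2 difference 1.45, SE 0.46, adjusted p = 0.0354), lost in 18 of 28 alternatives. The number higher in AEC1 was 0 without AEC1 papain replicate 1 or AEC1 papain + FK506 replicate 1, and 1 without AEC2 papain replicate 1, AEC2 papain replicate 2, AEC2 papain + FK506 replicate 2 or AEC1 papain replicate 2. Fkbp1a, the FKBP12 protein that FK506 binds, stood at 64, 162 and 242 CPM in AEC2 and 131, 316 and 585 CPM in AEC1 (log2 difference -1.07, SE 0.39, adjusted p = 0.0647). Of 11 tested cell cycle genes, 1 passed in each direction, the topoisomerase Top2a in AEC1 (log2 difference -3.11, SE 0.93, adjusted p = 0.0271) and cyclin Ccnd1 in AEC2 (log2 difference 1.36, SE 0.46, adjusted p = 0.0482). Their calls were lost in 8 and 19 of 28 alternatives.

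**Figure D4:**
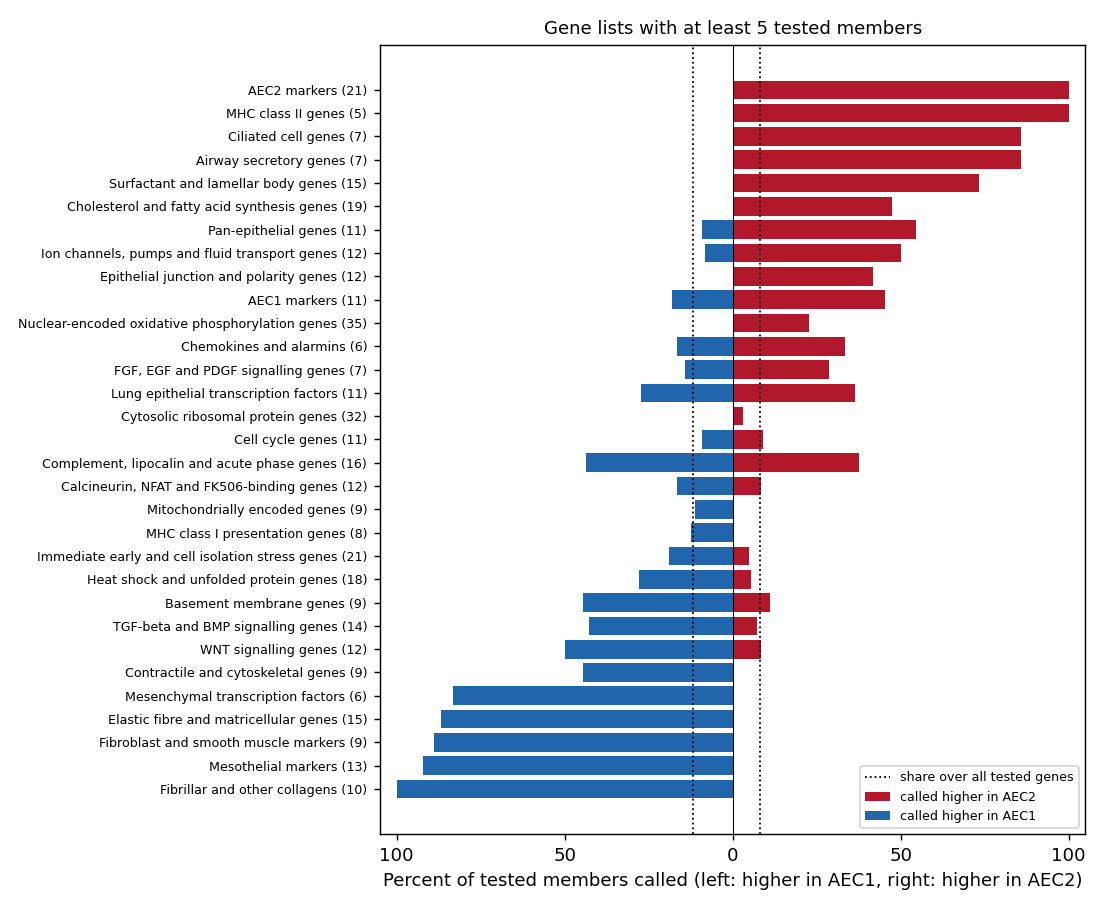
Percent of tested members called higher in AEC2 (red, right) or higher in AEC1 (blue, left) for each list with at least 5 tested members, the number tested in brackets. Dotted lines mark the shares over all tested genes, 8.15% and 11.7%. AEC2 markers and MHC class II genes reach 100% on the right, and collagens reach it on the left.

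The difference between the populations was also fitted within each treatment, with 2 libraries against 2. It passed in 226 genes (4.29%) in untreated mice, 74 (1.4%) of them higher in AEC2 and 152 (2.88%) higher in AEC1. With papain it passed in 314 (5.95%), 114 (2.16%) higher in AEC2 and 200 (3.79%) higher in AEC1. With papain and FK506 it passed in 245 (4.65%), 109 (2.07%) higher in AEC2 and 136 (2.58%) higher in AEC1. Of the 1047 genes called over all treatments, 217, 307 and 233 were called within the respective treatment, and 96 in all 3. The calls over all treatments came from the same libraries, and the 614 of them whose values do not overlap must keep their direction in every treatment, so these counts are a description. Since 2 of the AEC2 libraries in the untreated and papain groups are nearly identical, these groups are not independent. Sftpc differed by 4.21, 6.12 and 5.30 in untreated, papain and papain with FK506, and Col3a1 by -9.33, -10.79 and -10.03. 

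No gene passed the test of whether the difference depended on treatment (limma, interaction of cell type and treatment, 0 of 5273). The smallest adjusted p was 0.506, and 250 genes had an unadjusted p under 0.05, where 264 would be expected at that rate. Each group holds 2 libraries, and the nearly identical AEC2 libraries carry the untreated and papain labels that are compared. The lack of calls therefore cannot show that the difference is the same in every treatment. Without AEC1 papain replicate 1, 1 gene passed. Among the 5 genes with the smallest interaction p, Lamp3 differed by 2.11, 4.62 and 8.73 in the 3 treatments in that order, and Npc2, a cholesterol-binding lysosomal protein, by 2.58, 3.77 and 5.32. The elongation factor subunit Eef1g differed by 5.40, -1.72 and -0.68, with 1 AEC1 library listed at 0. The chaperonin subunit Cct7 and the histone-binding Hirip3 completed the set. None of them passed after adjustment over all tested genes (limma interaction adjusted p = 0.506 for Lamp3).

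**Figure D5:**
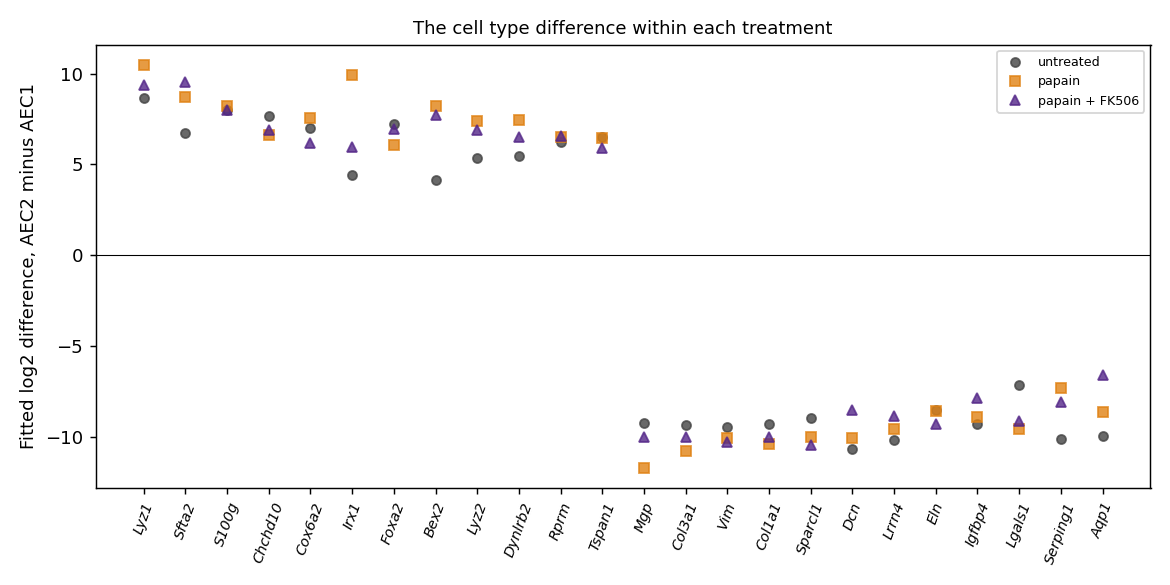
Fitted log2 difference, AEC2 minus AEC1, of the 24 genes named by size within untreated (circles), papain (squares) and papain with FK506 (triangles). The genes were chosen for values that do not overlap, which fixes the side of 0 in every treatment; what varies is the size, as for Irx1, at 4.41, 9.93 and 5.96.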

How the data were processed

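Expression was analysed in 12 libraries (6 AEC2, 6 AEC1) of mouse lung epithelial cells. Per the submitters' processing notes, the tools were STAR 2.7.0c and featureCounts 1.6.0, and mm10 and GRCm38.p6 are listed as builds without saying which was used for what. The authors deposited CPM values for 11 libraries. For AEC2 untreated replicate 1 the authors deposited whole numbers that sum to the same total, treated here as a score, CPM rounded by the authors. In the other 11 libraries 100% of values below 25 CPM were whole multiples of 1 read within 0.1 read, and edgeR and DESeq2 1.42.0 were run on those recovered reads as alternatives without the rounded library, calling 789 and 1498 genes. The denominator of the CPM, how strand was set and how multiply matching reads were treated are not given in the sources used here.

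Genes at 10 CPM in at least 6 libraries were tested, 5273 of 22083. CPM were divided by TMM factors (edgeR 4.0.16) and log2(CPM + 2) was modelled in limma 3.58.1 (R 4.3.3) on cell type plus treatment, with trended empirical Bayes. Tests were two-sided, with Benjamini-Hochberg adjustment over all tested genes and a threshold of 0.05. Fold changes on the log2(CPM + 2) scale understate low genes. The difference within each treatment and the interaction came from a fit of the 6 group means. Labels do not say that replicates came from separate animals, so p-values measure only the spread between libraries, and intervals of counting were not computed. The limma steps were tested on simulated data.

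Genes were named by rule: up to 12 per direction by size among called genes that did not overlap and averaged at least 100 CPM in the higher population, up to 4 most abundant tested members of each of 36 lists with called members against their list's majority, fixed marker genes, and the 5 smallest interaction p. Where all called members of a list are given by name alone, they were named after their values were seen. The comparison, lists and genes were chosen with earlier results of these data known, so no list is independent evidence. Alternatives varied the pseudocount, filter, scaling, block, tool and libraries. Promoter sequences are from the RefSeq table (GRCm38.p6). ILC2 and basophil libraries were not used, and some genes that the rule names are not reported here.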

Additional observations from a re-analysis of the deposited data

Results flagged for a closer look

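In each population the highest or the lowest of the 6 libraries was compared with its nearest neighbour on the log2(CPM + 2) scale, relative to the whole range of the group (Dixon's criterion). Of 122 groups examined, 13 had such a library, where chance gives about 6. Several of these rest on a single nonzero value in a group otherwise at or near 0.

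In AEC1, untreated replicate 2 stood apart with 17.3 CPM of Lyz1 and 52.9 CPM of Dynlrb2, untreated replicate 1 with 76.3 CPM of Sfta2, and papain + FK506 replicate 1 with 53.7 CPM of Cox6a2. The remaining libraries of AEC1 held 0 or a few reads of these genes, all named above as higher in AEC2. In AEC2, papain replicate 1 stood apart with 56.7 CPM of Serping1 and papain + FK506 replicate 2 with 33.1 CPM of Cav1, both named as higher in AEC1.

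AEC2 untreated replicate 1, the library deposited in whole numbers and the one with the most ribosomal RNA (303682 CPM), stood apart 5 times. It had the lowest Irx1 (859 CPM) and Abca3 (0 CPM) of the AEC2 libraries and the highest Lgals1 (16 CPM). Its AEC1 markers summed to 2476 CPM, the lowest, and its fibroblast and smooth muscle markers to 828 CPM, the highest. Without it 1203 genes were called between the populations, 408 of them higher in AEC2.

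AEC2 papain replicate 1 held the lowest sum of ciliated cell genes of the AEC2 libraries, 616 CPM, and the highest sum of neutrophil markers, 31 CPM.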

How the results depend on the processing

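The count of genes called over all treatments, 1047, was within 1.5 times of the main count in every alternative run, from 789 with edgeR to 1498 with DESeq2. Its direction split moved more. With a filter on a mean of at least 10 CPM, 932 genes were higher in AEC1, and with DESeq2 1002 were. With edgeR 269 were higher in AEC2. Without the rounded library and both of the nearly identical pair, an alternative chosen after seeing the data, 836 were called and 227 were higher in AEC2. The pair averaged into 1 library, also chosen after seeing the data, gave 1126 calls, and the rounded library and papain replicate 2 left out together gave 1093. The share of calls higher in AEC2 was 41.1% in the main fit and 30.9% without AEC2 papain replicate 2, 31.1% without untreated replicate 2, 34.1% with edgeR and 33.1% with DESeq2. Median-of-ratios size factors moved the median of all genes from -0.32 to -0.42. Leaving out 1 library gave 912 (without AEC1 papain replicate 2) to 1203 (without AEC2 untreated replicate 1) calls in all, 337 to 429 higher in AEC2 and 516 to 825 higher in AEC1.

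Within treatments, where a library left out leaves 1 assumed to vary like the others, counts ranged from 43 to 217 in untreated (lowest without AEC1 untreated replicate 1), 48 to 302 with papain (lowest without AEC1 papain replicate 2) and 50 to 247 with papain and FK506 (lowest without AEC2 papain + FK506 replicate 1). Interaction calls ranged from 0 to 1. How much of the loss of calls there follows from fewer samples was not tested.

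Same-numbered AEC2 and AEC1 libraries deviated from their group means with correlations of 0.004 in untreated, 0.004 in papain and -0.001 in papain with FK506. With 2 libraries per group, such values cannot exclude that the replicate numbers pair the libraries. The untreated and papain values also rest on the nearly identical AEC2 libraries. With the replicate block, 996 genes were called over all treatments, and 74, 103 and 83 within untreated, papain and papain with FK506.

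Of 104 called named genes, 88 kept the call in every alternative that tested them, and none reversed in 4084 pairs of gene and alternative. One read is worth about 1 CPM, so levels of a few CPM and the size of differences against values near 0 are limited by depth.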
